A study of Saccharomyces cerevisiae with 8 samples.

Results

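The 26S proteasome genes of Saccharomyces cerevisiae were followed as one group through a pooled screen for the growth response of yeast mutants to selenomethionine (SeMet), the selenium analogue of methionine. The group was a list of 44 genes coding for the subunits of the proteasome, its assembly factors, an activator and an adaptor, and its members were found by gene symbol among the probes of the array. Of the 44 genes, 43 had a probe, 40 had a value on at least 1 array and 38 could be scored at 20 µM SeMet, out of 5100 gene names with a probe and 4749 with a value in the whole series. The list held 6 ATPases of the base, 4 other base subunits, 9 lid subunits, 14 core particle subunits, 9 assembly factors, the activator gene BLM10 and the adaptor gene ECM29.

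The proteasome degrades proteins that carry ubiquitin chains. Its core particle is a barrel of stacked rings whose inner chamber holds the proteolytic sites, and a regulatory particle sits on its end: the lid removes ubiquitin, and the base, with its ring of ATPases, unfolds the substrate and threads it into the barrel. Dedicated chaperones, which are not part of the finished enzyme, help to put both particles together. Most subunits are essential in yeast, so a strain lacking one cannot be kept in a deletion collection, and such genes enter a pool as DAmP mutants, in which a cassette behind the coding sequence lowers the abundance of the mRNA.

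The pool combined haploid deletion strains and DAmP strains made in the BY4741 background (MATa his3∆1 leu2∆ met15∆0 ura3∆0), each tagged with DNA barcodes, and all 3 groups of arrays used this same pool in synthetic complete medium with 0.1 mM methionine and 0.1 mM cysteine. On 3 arrays the pool grown for 10 generations with 20 µM SeMet was compared with the pool grown without it, on 2 arrays the same was done with 12 µM SeMet, and 3 arrays set the pool grown without SeMet beside a sample taken at the start (t = 0). The labels give 16 h for that growth, and they call the arrays of a group biological replicates. The grown or treated pool always carried Cy3 and its reference Cy5, so a dye effect and a pool effect cannot be told apart.

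A relative fitness score is the log2 ratio of a strain's barcode signal in the treated pool over that in the untreated pool, averaged over the probes of a gene, and a growth score is log2(untreated/t = 0). A score below 0 stands for a strain that was less abundant than in the reference pool, relative to the other strains. The untreated pool after growth is the reference of the first score and the numerator of the second, so the 2 scores are given side by side and were not set against each other in a test. A strain was called lower or higher where limma gave an adjusted p under 0.05 for its group mean against 0, with adjustment over all strains scored. For 22 members the strain type could be read in the section of the study's strain list at hand: 18 were DAmP mutants, among them all 6 ATPases, and 4 were deletion strains (HSM3, ECM29, NAS2 and NAS6). These 22 had 20 µM means from −2.08 to −0.38. The type of no member with a higher mean could be read, so the 22 are not an even sample of the members.

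Between 4353 and 4722 strains had a value on an array, and array medians over all strains lay between −0.15 and 0.11. Arrays of the same group correlated across strains with r from 0.774 to 0.813 at 20 µM, 0.602 at 12 µM and from 0.714 to 0.843 in growth. Barcode intensities were not part of the values, so no counting error could be given, and the number of arrays limits the precision. Proteasome mutants varied more between arrays than the pool did: at 20 µM the median SD between arrays was 0.44 over the 38 members and 0.25 over all 4536 strains scored.

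At 20 µM SeMet the scores of the proteasome mutants ranged from −2.08 for RPT5 to 2.63 for POC4. Of 38 members, 15 were lower, 5 were higher and 18 were not called, where 13.8% of all strains were lower and 12.5% were higher. An unadjusted p under 0.05 was reached by 26 members, where 38.9% of all strains reached it. The median of the member means was −0.52, against −0.09 over all strains, and the member medians of experiments 1, 2 and 3 were −0.15, −0.81 and −0.75. Without experiment 1 or experiment 3 the members called higher numbered 3. Using the limit of 1.5 on the mean score, by which the study defined sensitive and resistant strains, 7 members fell below −1.5 (the 6 ATPases and HSM3) and 1 rose above 1.5 (POC4), while 3.06% of all strains were below −1.5 and 5.34% were above 1.5.

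**Figure D1:**
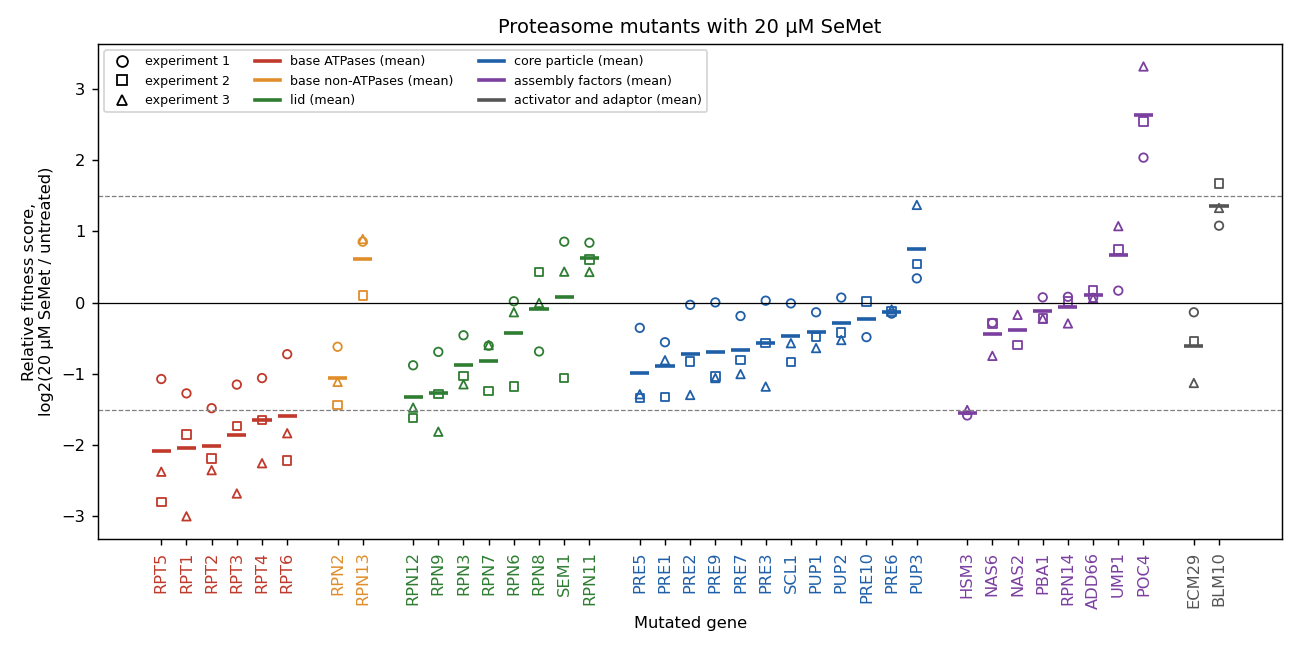
Relative fitness score of each proteasome mutant at 20 µM SeMet, as log2(20 µM SeMet/untreated), with the mutated genes along the horizontal axis ordered by arm of the complex and by mean. Open symbols are single arrays (experiments 1 to 3) and short bars are means. All 18 values of the 6 ATPases lie between −3.00 and −0.72, and POC4 stands highest with a mean of 2.63.

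The plot of scores at 20 µM shows each array's value beside the mean, so the arms of the complex can be compared with their scatter. The ATPases form the lowest block, the lid and core particle spread on both sides of 0 with most values below it, and the assembly factors hold both the highest mean and 1 of the 7 lowest.

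The 6 ATPase mutants, in RPT1 to RPT6, were all lower at 20 µM. These subunits form the ring at the foot of the regulatory particle that pulls substrates into the core. The RPT1 mutant (YKL145W) scored −1.27, −1.85 and −3.00 in experiments 1, 2 and 3, a mean of −2.04 ± 0.88 (SD, n = 3, adjusted p = 0.0014). The RPT2 mutant (YDL007W), whose subunit helps to open the gate of the core, scored −1.48, −2.19 and −2.35, a mean of −2.01 ± 0.46 (adjusted p = 0.00020). The RPT3 mutant (YDR394W), whose subunit also docks on the core, scored −1.15, −1.73 and −2.68, a mean of −1.85 ± 0.77 (adjusted p = 0.0019). In all of these mutants experiment 1 gave the weakest score and experiment 3 the strongest. Over all strains the SD was 0.80, 0.78 and 1.11 in experiments 1, 2 and 3, so experiment 3 was also the widest across the pool. The RPT4 mutant (YOR259C) scored −1.06, −1.65 and −2.25, a mean of −1.65 ± 0.60 (adjusted p = 0.0013). The RPT5 mutant (YOR117W) scored −1.07, −2.80 and −2.37, a mean of −2.08 ± 0.90 (adjusted p = 0.0027). The RPT6 mutant (YGL048C) scored −0.72, −2.22 and −1.83, a mean of −1.59 ± 0.78 (adjusted p = 0.0037). For RPT5 and RPT6 experiment 2 was the strongest, and experiment 1 was again the weakest.

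The ATPase means corresponded to a 3.01- to 4.23-fold lower abundance in the treated pool. They spanned 0.49, which is about the smallest of their own SDs (0.46 to 0.90). These SDs include shifts between arrays that the 6 strains shared. Compared within each array, RPT1 lay below RPT3, RPT2 and RPT3 below RPT4, and RPT5 below RPT6 in all 3 experiments. Some other pairs, such as RPT1 and RPT5, changed order between experiments, and no difference between the strains was tested. The median ATPase score was −1.11 in experiment 1, −2.02 in experiment 2 and −2.36 in experiment 3. No other member with a score had a mean below that of RPT6 (−1.59), although HSM3 lay close to it at −1.54. RPT4 and RPT5 were scored from 1 probe each and the other 4 from at least 2. All 6 stayed called lower with any single array left out, and without experiment 3 their means moved up so that 3 members in all remained below −1.5.

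At 12 µM the ATPase mutants were below 0 on both arrays, and none was called. Their scores in experiments 1 and 2 were −0.76 and −0.30 for RPT1, −1.04 and −0.64 for RPT2 and −0.77 and −0.25 for RPT3. They were −0.89 and −0.24 for RPT4, −1.24 and −0.07 for RPT5 and −1.17 and −0.67 for RPT6. The RPT5 score in experiment 2 averaged the probe scored at 20 µM (−0.18) with another that had no 20 µM value (0.05). In every one of the 6 strains experiment 1 was the lower array. In RPT5 and RPT6 the weakest 20 µM score lay above the lower of the 12 µM scores, whereas the other ATPase strains had all their 20 µM scores below their 12 µM scores. Only RPT2 and RPT6 reached an unadjusted p under 0.05 at 12 µM (adjusted p = 0.13 and 0.32). With arrays centred and scaled to 1 spread, RPT1, RPT2 and RPT6 were called at 12 µM (adjusted p = 0.049, 0.0085 and 0.030) and the ATPase median there moved from −0.61 to −1.13.

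In growth without SeMet no ATPase mutant was called, and none had an unadjusted p under 0.05. The growth scores in experiments 1, 2 and 3 were −0.02, −0.33 and −0.37 for RPT1, −0.44, −0.41 and −0.34 for RPT2 and −0.24, 0.41 and −0.12 for RPT3. They were −0.04, −0.42 and −0.30 for RPT4, −0.40, −0.30 and 0.00 for RPT5 and −0.47, −0.77 and −0.17 for RPT6. In experiment 1 the RPT5 score averaged the probe scored at 20 µM (−0.06) with another that had no 20 µM value (−0.75). Growth scores of the 6 strains thus lay between −0.77 and 0.41, with a median of means of −0.25 against 0.08 over all strains. RPT6 had the lowest growth mean (−0.47 ± 0.30, SD, n = 3, 95% interval −1.09 to 0.15) and RPT3 the highest (0.02 ± 0.35, interval −0.61 to 0.65).

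The base subunits that are not ATPases could be scored for RPN2 and RPN13 only. RPN2 codes for a scaffold of the base, and its mutant scored −0.62, −1.44 and −1.11 at 20 µM, a mean of −1.06 ± 0.41 (adjusted p = 0.0050). RPN13 codes for the ubiquitin receptor that Rpn2 holds, and its mutant scored 0.85, 0.10 and 0.89, a mean of 0.62 ± 0.45 (adjusted p = 0.034). The RPN2 mutant was below 0 on every 20 µM array. The RPN13 call was lost without 20 µM experiment 1 (adjusted p = 0.15), without experiment 3 (0.18) and without growth experiment 2 (0.052), and the RPN2 call with no single array. RPN1, the other large scaffold of the base, had no probe, and RPN10, a ubiquitin receptor, had a value on 1 growth array only (1.90).

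Among the 8 lid mutants scored, 4 were lower and 1 was higher at 20 µM, where 13.8% of all strains were lower and 12.5% higher. The median of the lid means was −0.62. RPN12, the subunit that joins last and lets the lid meet the base, scored −0.88, −1.62 and −1.47, a mean of −1.32 ± 0.39 (adjusted p = 0.0029). RPN9, a non-essential lid subunit, scored −0.69, −1.28 and −1.81, a mean of −1.26 ± 0.56 (adjusted p = 0.0040). The scaffold subunits RPN3 and RPN7 had means of −0.88 ± 0.37 (adjusted p = 0.0040) and −0.81 ± 0.37 (adjusted p = 0.015). The 4 strains were below 0 in every 20 µM experiment. RPN7 lost its call without 20 µM experiment 2 (adjusted p = 0.079) and with arrays centred and scaled to 1 spread (0.11).

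RPN11, which codes for the deubiquitinase of the lid, went the other way at 20 µM. Its mutant scored 0.84, 0.61 and 0.43, a mean of 0.63 ± 0.21 (adjusted p = 0.012), and 0.42 and 0.66 at 12 µM. The same mutant was lower in growth, with −1.26, −0.91 and −1.40 and a mean of −1.19 ± 0.25 (adjusted p = 0.0016). All 5 SeMet scores of the RPN11 mutant were above 0 and all 3 growth scores below it. Its call at 20 µM was lost without experiment 1 (adjusted p = 0.067).

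The other lid mutants were not called at 20 µM. RPN8, whose subunit pairs with Rpn11, had a mean of −0.09 ± 0.56 (adjusted p = 0.80), and RPN6, which bridges lid and core, had −0.43 ± 0.65 (adjusted p = 0.18). SEM1, a small subunit that tethers Rpn3 to Rpn7, scored 0.85, −1.06 and 0.43 at 20 µM, which is the widest scatter in the lid. Its growth scores were −1.41, −0.73 and −1.13, a mean of −1.09 ± 0.35 (adjusted p = 0.048), and that call was lost with any single growth or 12 µM array left out, or 20 µM experiment 3 (adjusted p between 0.053 and 0.20). RPN5 had probes without a value.

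Core particle means stood low in growth and, to a smaller size, at 20 µM, where few mutants were called. A difference between the core and the ATPases was not tested. In growth, 9 of the 12 core mutants scored were lower and 0 higher, where 12.7% of all strains were lower and 14.2% higher, and only RPN11 and SEM1 were lower among the 26 other members scored. Over all 38 members 11 were lower and 1 was higher in growth, and 14 had an unadjusted p under 0.05 against 40.6% of all strains. The median of the core growth means was −1.07, with −1.19, −0.97 and −0.99 in experiments 1, 2 and 3. At 20 µM, 11 of the 12 core means were below 0, and the median was −0.52, as over all members. Of the 12 mutants 2 were called lower and 1 higher, beside 13.8% and 12.5% of all strains. An unadjusted p under 0.05 was reached by 8, against 38.9% of all strains. At 12 µM the core median was −0.02.

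**Figure D2:**
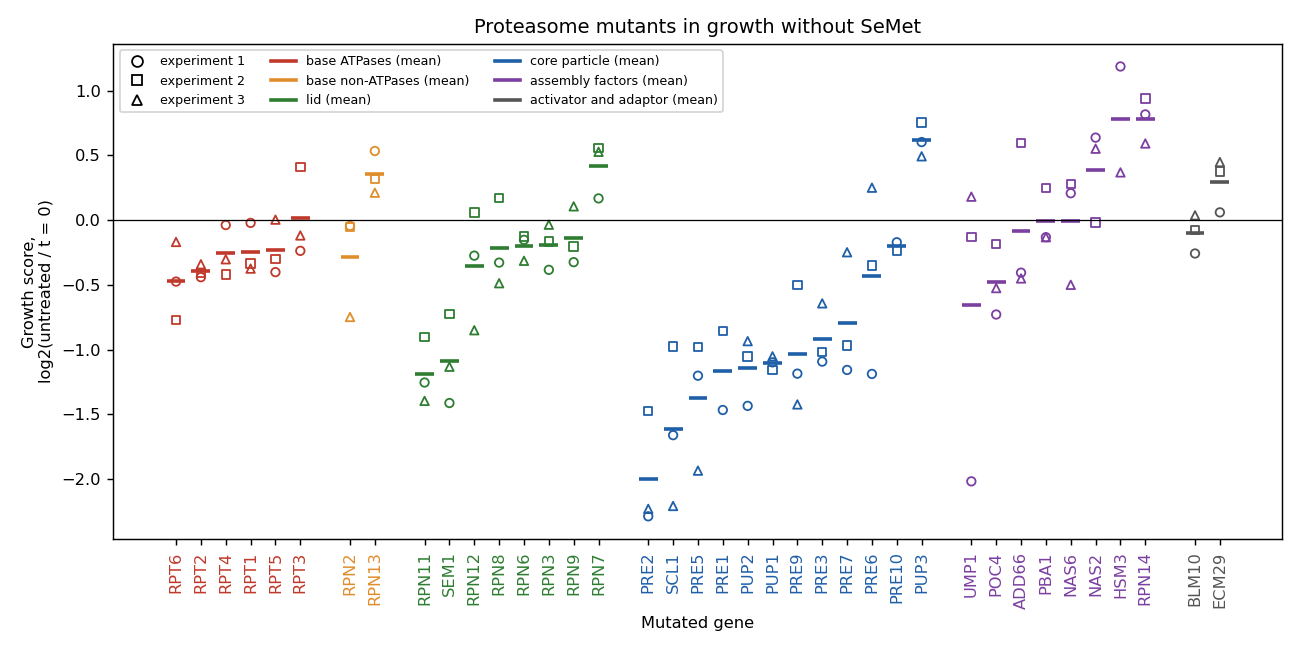
Growth score of each proteasome mutant without SeMet, as log2(untreated/t = 0), with the genes ordered by arm and mean, single arrays as open symbols (experiments 1 to 3) and means as short bars. Core particle mutants reach down to a mean of −2.00 for PRE2, while the 6 ATPase means lie between −0.47 and 0.02.

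The plot of growth scores shows the core particle as the lowest arm, with PUP3 apart above 0. The UMP1 values are the most scattered, and its probes disagreed, as described with the assembly factors.

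The catalytic subunits all gave lower growth scores. PRE2 codes for the subunit with chymotrypsin-like activity, and its mutant scored −2.29, −1.47 and −2.23, a mean of −2.00 ± 0.46 (adjusted p = 0.0020). PUP1, with trypsin-like activity, scored −1.10, −1.16 and −1.05, a mean of −1.10 ± 0.05 (adjusted p = 0.0025). PRE3, with caspase-like activity, scored −1.09, −1.02 and −0.64, a mean of −0.92 ± 0.24 (adjusted p = 0.020). PRE2 was lowest in each growth experiment among these. At 20 µM the same mutants had means of −0.72, −0.42 and −0.57 and were not called (adjusted p = 0.072, 0.072 and 0.095).

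The remaining subunits of the inner rings were divided. PRE1 and PRE7 were lower in growth (−1.16 ± 0.43, n = 2, adjusted p = 0.018, and −0.79 ± 0.48, n = 3, adjusted p = 0.029). PUP3 was above 0 in growth (0.60, 0.75 and 0.49, mean 0.62 ± 0.13, adjusted p = 0.050, just short of a call, which it gained without 20 µM experiment 1 or 3) and was higher at 20 µM (0.34, 0.54 and 1.37, mean 0.75 ± 0.55, adjusted p = 0.024). Its 3 growth values were above those of all other core mutants in the same experiment. PRE1 was lower at 20 µM as well, with −0.56, −1.32 and −0.81 and a mean of −0.90 ± 0.39 (adjusted p = 0.019). PRE4 had probes without a value.

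Outer ring mutants, whose subunits form the gate and the surface that the base docks on, had growth means from −1.62 to −0.20, beside −2.00 to 0.62 for the inner rings. SCL1 scored −1.66, −0.98 and −2.21 in growth, a mean of −1.62 ± 0.62 (adjusted p = 0.0033). PRE5 scored −1.20, −0.98 and −1.94, a mean of −1.37 ± 0.50 (adjusted p = 0.0062), and was also lower at 20 µM with −0.35, −1.34 and −1.29, a mean of −0.99 ± 0.55 (adjusted p = 0.017). PRE5 and PRE1 were the core mutants lower in both comparisons. PUP2 (−1.14 ± 0.26, adjusted p = 0.0025) and PRE9, the one core subunit yeast can live without (−1.04 ± 0.48, adjusted p = 0.019), were lower in growth and not called at 20 µM (−0.29 and −0.70). One PRE9 probe had no value in 20 µM experiment 1 and read −1.23 and −2.06 in experiments 2 and 3. The other PRE9 probe read 0.00, −0.84 and −0.06. In growth experiment 2 these probes read 0.08 and −1.08. PRE6 (−0.43 ± 0.72, adjusted p = 0.20) and PRE10 (−0.20 ± 0.05, adjusted p = 0.41) were not called in growth, and PRE8 had probes without a value. PRE6 had the highest 20 µM mean of the outer ring, −0.12 ± 0.03, from 2 probes on opposite sides of 0 on every 20 µM array (0.19, 0.02 and 0.43 against −0.50, −0.27 and −0.62), so its small SD does not measure the spread of the probes.

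Calls of core mutants at 20 µM depended on which experiments were included. Without experiment 2 none of the 12 was lower (adjusted p = 0.087 for PRE5 and 0.086 for PRE1), and without experiment 3 none was lower or higher (0.10 for PRE5, 0.068 for PRE1 and 0.095 for PUP3). Without experiment 1, 6 core mutants were lower: PRE1, PRE2, PRE3, PRE5, PRE7 and PRE9. In growth 5 core mutants (6 members in all) were lower without experiment 1, where PRE3, PRE7 and PRE9 lost their call (adjusted p = 0.11, 0.16 and 0.097) and PRE1 had too few arrays. Without growth experiment 2, 6 core mutants (7 members in all) were lower, with PRE3 and PRE7 lost (0.093 and 0.13) and PRE1 again not scored. Without growth experiment 3, PRE9 lost its call (0.094) and PRE6 gained one. In that experiment probes of a gene disagreed, with 1.53 and −1.03 for PRE6 and −1.09 and −0.19 for PRE3. The PRE7 probes with a value there read −1.03 and 0.54.

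**Figure D3:**
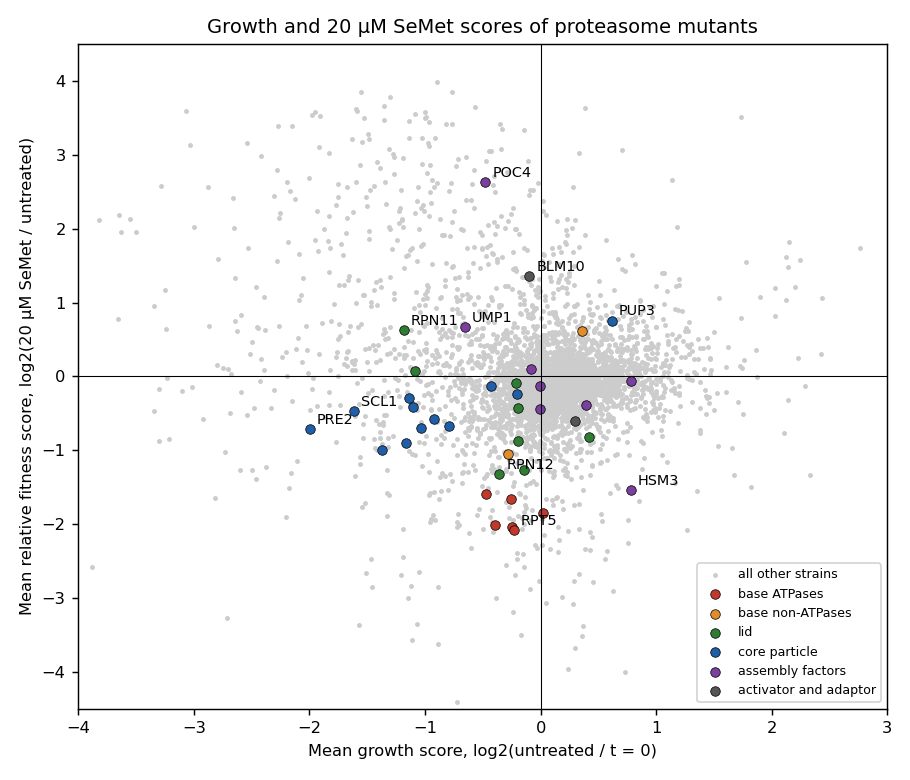
Mean growth score, log2(untreated/t = 0), on the horizontal axis against mean relative fitness score, log2(20 µM SeMet/untreated), on the vertical axis for the 38 proteasome mutants (coloured by arm) and the other strains (grey), with 4 strains outside the plotted range. ATPase mutants sit low on the vertical axis near 0 on the horizontal axis, and most core mutants sit to the left with 20 µM means between −0.99 and −0.12.

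The plot of growth against 20 µM scores is a display only, because the untreated pool enters both axes with opposite sign. It places the core particle and ATPase mutants in different regions, with RPN12, RPN9 and RPN2 between the ATPases and the bulk of strains, and with POC4 and BLM10 above it.

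Assembly factor mutants included the highest mean of all members at 20 µM, in POC4, and 1 below −1.5, in HSM3. POC4 codes for one partner of a chaperone pair that helps to build the outer ring of the core, and its mutant scored 2.03, 2.54 and 3.31, a mean of 2.63 ± 0.64 (adjusted p = 0.00019), or 6.19-fold higher. At 12 µM the POC4 mutant scored 0.95 and 0.88, and in growth −0.73, −0.19 and −0.53. Its SeMet scores were above 0 on all 5 arrays and its growth scores below 0 on all 3. IRC25, which codes for the partner of Poc4, had a value on 1 array at 20 µM (0.33) and on 1 growth array (2.32), so it was not scored. The other chaperone pair of that ring, PBA1 and ADD66, had 20 µM means of −0.12 ± 0.17 and 0.10 ± 0.07, but the 2 probes of each gene lay on opposite sides of 0 on every 20 µM array. The PBA1 probes read 0.44, 0.21 and 0.18 against −0.29, −0.66 and −0.62, and the ADD66 probes 0.62, 0.47 and 0.39 against −0.49, −0.12 and −0.27, so the means average disagreeing probes.

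The chaperones of the base each bind 1 of the ATPases, and their mutants were not alike. HSM3, whose product binds Rpt1, scored −1.58 and −1.51 in experiments 1 and 3, a mean of −1.54 (n = 2, 1 probe, adjusted p = 0.0090), had no score at 12 µM, and had a growth mean of 0.78 ± 0.58 (n = 2, adjusted p = 0.069). The HSM3 probe scored at 20 µM had a growth value in experiment 1 only (1.18). The HSM3 growth score of experiment 3 (0.37) came from another probe, which had no 20 µM value. NAS6, whose product binds Rpt3, had a 20 µM mean of −0.44 ± 0.26 (adjusted p = 0.11). NAS2, whose product binds Rpt5, had −0.38 ± 0.30 (adjusted p = 0.29). RPN14, whose product binds Rpt6, had −0.06 ± 0.20 at 20 µM (adjusted p = 0.75) and was the 1 member higher in growth, with 0.82, 0.94 and 0.59 and a mean of 0.78 ± 0.18 (adjusted p = 0.0057). The 2 RPN14 probes read 1.05 and 0.59 in growth experiment 1 and 1.70 and 0.18 in experiment 2. Only 1 of them had a value in experiment 3, so the SD does not measure the spread of the probes. HSM3 was thus the only base chaperone called at 20 µM, and differences between these chaperones were not tested.

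UMP1, the maturation factor enclosed in the nascent core, scored 0.17, 0.75 and 1.07 at 20 µM, a mean of 0.66 ± 0.46 (adjusted p = 0.24). Its growth scores were −2.02, −0.13 and 0.18. Of its 4 probes, 2 gave values in every group and 2 in growth only, and the latter were as low as −4.20. With probes limited to those valued in all 3 groups, an alternative chosen after seeing the data, UMP1 had a growth mean of 0.24 and was called higher at 20 µM (0.66, adjusted p = 0.027). Its 20 µM scores were the same in both settings. The fit uses 1 estimate of the spread per strain for all 3 groups, so the disagreeing growth probes entered the first adjusted p at 20 µM.

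BLM10, an activator that caps the core in place of the regulatory particle, was higher at 20 µM, with 1.08, 1.67 and 1.33 and a mean of 1.36 ± 0.30 (adjusted p = 0.00032), and scored 0.77 and 0.71 at 12 µM. Its 3 probes were all above 0 on every SeMet array. ECM29, which tethers core and regulatory particle, scored −0.14, −0.54 and −1.13, a mean of −0.60 ± 0.50 (adjusted p = 0.044), and lost its call with any single array left out other than 20 µM experiment 1 (adjusted p between 0.054 and 0.23, with a mean of −0.34 without experiment 3).

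At 12 µM none of the 37 members scored was called lower or higher, where 0.87% of all strains were lower and 0.137% higher, and 7 members had an unadjusted p under 0.05, a share to be read against 11.8% of all strains. The median of the member means was −0.09. The lowest was RPT6 (−0.92 ± 0.36, SD, n = 2, adjusted p = 0.32) and the highest POC4 (0.92 ± 0.05, adjusted p = 0.22). Differences between the doses were tested strain by strain, and limma called 0 of 37 members and 0% of all strains, with 11 members and 12.9% of all strains at an unadjusted p under 0.05. Per the study's methods each experiment grew 1 culture without SeMet beside both doses, so arrays of the 2 doses may share an untreated culture. The labels do not state whether equal replicate numbers mark such pairs.

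The plot by dose joins the 2 means of each strain, and the error bars of the ATPases at 20 µM are longer than the gap between most of their lines. Over all strains the SD was also smaller on the 12 µM arrays (0.42 and 0.53) than on the 20 µM arrays (0.78 to 1.11). For RPT1 the difference of 20 minus 12 µM was −1.51 (95% interval −2.55 to −0.47, adjusted p = 0.19), for RPT2 −1.17 (−1.80 to −0.53, adjusted p = 0.13) and for RPT6 −0.67 (−1.65 to 0.31, adjusted p = 0.55). RPT3, RPT4 and RPT5 lay between these, at −1.34, −1.09 and −1.43. For POC4 it was 1.71 (0.90 to 2.53, adjusted p = 0.13). Without 20 µM experiment 1 the differences of RPT2 (−1.43, adjusted p = 0.045) and POC4 (2.01, adjusted p = 0.045) were called. The share of all strains called in that setting is not given here.

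Essential genes made up 28 of the 44 members and 24 of those scored at 20 µM. Of the 24, 12 were lower and 2 higher with a median of −0.77, and among the 14 non-essential members 3 were lower and 3 higher with a median of −0.09, where 13.8% of all strains were lower and 12.5% higher. The essential members other than the ATPases, 18 strains, had 6 lower, 2 higher and a median of −0.52. Essential genes enter the pool as DAmP mutants and most other genes as deletion strains, although RPN9, a non-essential gene, was listed as a DAmP mutant, so gene class and strain type cannot be told apart here.

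A list of 20 genes that act next to the proteasome was read in the same way. At 20 µM 14 were scored, 6 were lower and 1 was higher, beside 13.8% and 12.5% of all strains. UBP6, the deubiquitinase bound to the base, scored −2.69, −3.40 and −2.61, a mean of −2.90 ± 0.43 (adjusted p = 0.00042), which is below every ATPase mean. MUB1 and UBR2 form the ubiquitin ligase that marks Rpn4 for degradation, and their mutants had means of −1.80 ± 0.46 (adjusted p = 0.00028) and −1.72 ± 0.08 (adjusted p = 0.0014). RPN4, the transcription factor that raises expression of proteasome genes, scored 1.14, 1.37 and 3.54, a mean of 2.02 ± 1.33 (adjusted p = 0.011), and in growth −1.09, −0.64 and −1.85 (adjusted p = 0.078). The RPN4 and MUB1/UBR2 mutants therefore stood on opposite sides of 0 at 20 µM, with RPN4 highest in experiment 3, without which its mean was 1.25 (adjusted p = 0.019), and its call was lost with only the 20 µM arrays in the fit (adjusted p = 0.059). The other genes called were RAD23, a shuttle for ubiquitinated substrates (−1.29, adjusted p = 0.00060), UFD2, a ligase that extends ubiquitin chains (−0.57, adjusted p = 0.014), and the shuttle gene DDI1 (−0.45, adjusted p = 0.016). The last 2 lost their call without 20 µM experiment 1 (adjusted p = 0.055 and 0.057) or experiment 3 (0.084 and 0.090).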

How the data were processed

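The screen used custom barcode microarrays with 2 colours, scanned and quantified with a GenePix scanner and its software. The values analysed are the deposited series matrix of 15744 probes, in which the authors gave, per probe and array, a normalized log2 ratio of the SeMet-treated over the untreated pool, or of the untreated pool over t = 0. Their R scripts made these values, and the background correction and normalization were not given in the sources used here, so an effect of them on the scores could not be measured. The direction follows the dyes in the labels, and no array had swapped dyes.

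Probes were named from the platform annotation, and 13084 had 1 gene symbol. Locus tags came from RefSeq. Probes of a gene were averaged on each array. Strains with at least 2 values in a group were tested with limma 3.58.1 in R 4.3.3 (lmFit and eBayes, all 8 arrays as 3 groups, two-sided, Benjamini-Hochberg adjustment over all strains), and intervals are 95%. The code was tested on simulated data. Members and lists were chosen with earlier results of these data known, so lists are described by counts and medians only. Named were the 6 ATPases, each other member called in any group or past 1.5 at 20 µM, the lowest and highest 20 µM mean of each arm, members without a score, and, of the neighbouring genes, RPN4 and those past 1.5. Other genes that are named besides (RPN8 and RAD23 among them) were chosen after their values were seen. Alternatives were centring or scaling of arrays, the median of probes, at least 2 probes, a value on every array, a group's own arrays only, other limits, robust eBayes, a replicate block and leaving out each array.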

Additional observations from a re-analysis of the deposited data

How the results depend on the processing

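The ATPases kept their calls at 20 µM under every alternative that scored them. With arrays centred and scaled to 1 spread, 4 members were lower and 3 higher at 12 µM (RPT1, RPT2, RPT6, POC4 and BLM10 among them), RPN7, PRE1 and ECM29 lost their 20 µM call (adjusted p = 0.11, 0.083 and 0.082) and SEM1 its growth call (0.062), the ATPase medians were −1.13 at 12 µM and −0.33 in growth, 4 members were below −1.5 at 20 µM, and the RPT6 difference of 20 minus 12 µM turned to 0.26 (adjusted p = 0.89). With arrays only centred the ATPase growth median was −0.33. With at least 2 probes per gene the assembly factor median at 20 µM was 0.10, the core growth median was −0.88, and 4 members were below −1.5. With only a group's own arrays 3 members were higher at 20 µM, 1 at 12 µM and 2 in growth, RPN13, PRE5, PUP3, ECM29, RPN4, UFD2 and DDI1 lost their 20 µM call (adjusted p = 0.11, 0.052, 0.095, 0.13, 0.059, 0.072 and 0.082) and PRE7 its growth call (0.057). Under scaling UFD2 and DDI1 lost theirs too (0.056 and 0.065), as did ECM29 under centring (0.062). In growth 2 were higher with a value on every array or, an alternative chosen after seeing the data, with probes valued in all 3 groups. A limit of 1 left 2 members above it, and a limit of 2 left 3 below it. With single arrays left out, members lower numbered 11 to 18 at 20 µM and 6 to 11 in growth, members higher 3 to 6 and 1 to 2, dose differences 0 to 1 in each direction, and members below −1.5 numbered 3 to 8. Medians then ranged from −0.36 to −0.20 (ATPases, growth), from −0.14 to 0.085 (assembly factors, 20 µM) and from −0.14 to 0.10 (assembly factors, growth). Scaling to 1 spread enlarges the scores of arrays with a small spread. The SD over all strains was 0.42 and 0.53 on the 12 µM arrays, beside 0.76 to 1.11 on the others. Centring subtracts the median of each array. The share of all strains called at 12 µM under scaling is not given here, and the cause of the other shifts was not tested.

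Arrays of different groups share replicate numbers. Deviations of same-numbered arrays from their group means correlated with r between −0.26 and 0.20, which cannot decide whether the numbers pair the arrays. With so few arrays the deviations within a group depend on each other, and those of the 12 µM arrays mirror one another. A shared untreated culture would also enter SeMet and growth scores with opposite sign, so a negative r there does not speak against pairing. The main fit left the arrays unpaired, and a replicate block was run as an alternative. With the replicate block 15 members were lower and 4 higher at 20 µM, 8 lower and 1 higher in growth, and 0 lower or higher at 12 µM and between doses. PRE1, PRE7 and SEM1 lost their growth call (adjusted p = 0.065, 0.056 and 0.082), and RPN13 and ECM29 their 20 µM call (0.056 and 0.067).

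Precision rests on 2 or 3 arrays a group. Signal over background was not part of the values, and 8 members were scored at 20 µM from 1 probe.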

Other observations

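Probes of one gene gave close scores for some members and not for others. At 20 µM the median SD between the probes of a gene was 0.26 over 30 members with at least 2 probes, against 0.23 over 3692 genes of the array. In growth this median was 0.36 over 32 members, against 0.29 over 3833 genes. The widest among the members was PRE9 at 0.84 in the 20 µM arrays, PRE6 at 0.80 in the 12 µM arrays and UMP1 at 1.34 in the growth arrays.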
